A study of Mus musculus with 15 samples.

Results

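Cortical interneurons sorted from embryos labelled Mtg8 mutant were compared with those sorted from embryos labelled control. They make up 6 of the 15 RNA-seq libraries of a study on how MTG8 and LHX6 act in interneurons of the medial ganglionic eminence (MGE). The members were chosen by library title: the 3 libraries titled as Mtg8 controls (replicates 1, 2 and 4) and the 3 titled as Mtg8 knockouts (replicates 2, 3 and 4). The Mtg8 genotype was Mtg8+/+ in control embryos and Mtg8-/- in mutant embryos. All carried the transgene Nkx2-1-Cre and were homozygous (fl/fl) for the reporter allele R26R-YFP. They were taken at embryonic day (E) 14.5, on a C57BL/6/CBA mixed background and of either sex. The study states that the sexes were unevenly spread over control and mutant samples and removed sex-linked genes for this reason. Nkx2-1-Cre switches on yellow fluorescent protein (YFP) in cells descended from Nkx2-1-expressing progenitors, so the sort for YFP in dissociated cortex was meant to collect MGE-derived cells that had migrated there. The Mtg8 allele is a germline LacZ knock-in, so MTG8 was to be missing from every cell of the embryo and not from interneurons alone. Each library was made from 1 embryo.

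MTG8, the product of Runx1t1, is a corepressor of the ETO family: it does not bind DNA itself but joins DNA-bound transcription factors and recruits histone deacetylases. The MGE is the embryonic source of the cortical interneurons that will express somatostatin or parvalbumin. Its postmitotic cells depend on the LIM-homeobox factor LHX6 and on SOX6 and SATB1 downstream of it, and they migrate tangentially into the cortex long before their mature peptides, channels and synapses are complete. The comparison asks which transcripts of these cells differ when MTG8 is lost.

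**Figure D1:**
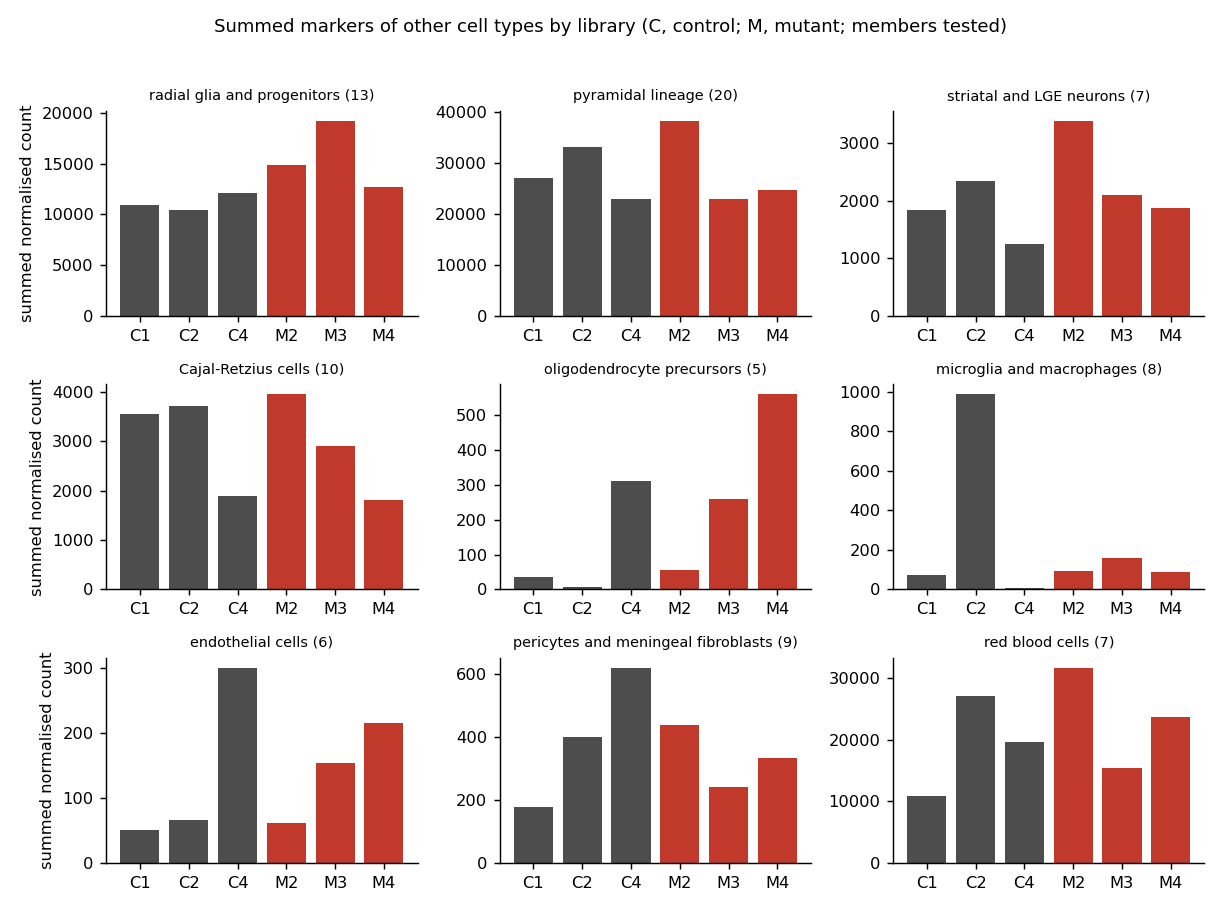
Bars give the summed normalised count of the tested markers of 9 cell types other than MGE interneurons in each library (C, control; M, mutant). Not all markers are specific: interneurons also express Bcl11b and Cux2 of the pyramidal list. Reln and Calb2 of the Cajal-Retzius list are also on the list of somatostatin interneuron subtype genes. Oligodendrocyte precursor and endothelial markers are highest in control 4 and mutants 3 and 4, and microglial markers in control 2 (989).

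The 6 libraries held 16139978 to 22053032 reads assigned to genes and 22372 to 24106 genes above 0. Defining transcripts of the MGE lineage were present: Lhx6 was at 8994, 9376 and 9489 normalised counts in controls 1, 2 and 4 and at 7055, 8666 and 7953 in mutants 2, 3 and 4, and Nkx2-1 was at 547 to 1183 in all 6. RNA of other cells was present as well and differed among libraries. The summed level of the 8 tested markers of microglia was 989 in control 2 and 7.83 to 160 in the other 5 libraries. The 5 tested markers of oligodendrocyte precursors, led by Olig1 and Pdgfra, summed to 311 in control 4, 258 in mutant 3 and 559 in mutant 4, against 6.40 to 56.6 in controls 1 and 2 and mutant 2. Those same 3 libraries, whose column names carry no leading date, also had the highest sums of 6 endothelial markers (153 to 301, against 50.3 to 66.1). Red blood cell transcripts summed to 10886 to 31752 with overlap between groups. All 7 red blood cell markers and all 5 of oligodendrocyte precursors had a higher mean in the mutants, and 2 of each (28.6% and 40%, against 3.06% of all genes) passed an unadjusted p under 0.05. The part of these cells in the differences below was not tested. Values without a library or within a style of library name are given beside some of them. Within dated names 1 mutant (mutant 2) stands against 2 controls (1 and 2), and within undated names 2 mutants (3 and 4) stand against 1 control (4), so such values have no test. The dated names share 1 code, and the undated names each carry a different one. What these dates and codes stand for was not given in the sources used here. The study's methods call the mutants littermates of the controls, without saying which of these embryos shared a litter.

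The transcript of the targeted gene was not lower in the libraries labelled mutant. Runx1t1 (ENSMUSG00000006586.15, chr4:13743436-13893649, plus strand, GRCm38.p6) was at 7938, 10265 and 8470 normalised counts in controls 1, 2 and 4 and at 13934, 12250 and 12352 in mutants 2, 3 and 4. The groups did not overlap and the mutant mean was 144% of the control mean (log2 difference 0.54 ± 0.17 SE, limma p = 0.00752, adjusted p = 0.859; n = 3 per group, two-sided exact permutation p = 0.1, the smallest that 3 against 3 allows). A gene-level count sums all exons and cannot tell transcripts of the knock-in allele from those of an intact one, so it does not check the genotype. For this reason the groups are called by their labels, and every direction below is that of the libraries labelled mutant. The 2 paralogues overlapped between groups: Cbfa2t2 (MTGR1) was at 2464 to 3171 in the controls and 2433 to 4361 in the mutants, and Cbfa2t3 (MTG16) at 4088 to 4354 and 3566 to 5912. Their small differences, 0.19 and 0.15 on the log2 scale, changed sign when mutant 2 (Cbfa2t2) or mutant 4 (Cbfa2t3) was left out. Of 19 measured partners of MTG proteins, 1 was lower and 1 higher at an unadjusted p under 0.05 (5.26% each, against 2.44% and 3.06% of all genes). The LIM-only factor gene Lmo1 was higher in every mutant (154, 271 and 88.0 against 474, 365 and 279; log2 difference 1.23, limma adjusted p = 0.859), and the zinc finger repressor gene Zbtb16 was lower in mutants 2 and 3 (683.10 and 349) but not in mutant 4 (1108), against 1063 to 1118 in the controls.

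Few single genes passed a threshold. Of 16132 genes with a mean normalised count of at least 10, limma on log2(normalised count + 1) called 0 lower (0.0%) and 0 higher (0.0%) at an adjusted p under 0.05. Without adjustment, the limit of 0.05 was passed by 393 in the lower direction (2.44%) and 493 in the higher (3.06%), together 5.49%. Without single libraries these counts ran from 181 to 1115 lower and from 347 to 1151 higher, with the most without mutant 2, and without mutant 4 more were lower (589) than higher (381). With equal library totals they were 240 lower and 625 higher. The 3 mutant values lay below the 3 control values for 891 genes (5.52%) and above them for 755 (4.68%), together 10.2%. DESeq2, the test that the study used, was run on whole reads recovered from the same values and called 9 genes lower (0.0456% of the 19724 genes it tested) and 21 higher (0.106%); edgeR called 0 lower and 1 higher. Without mutant 2, limma called 4 lower and 83 higher. The plot of level against difference marks the genes that DESeq2 called. A p-value here measures the spread between single embryos of 1 group.

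**Figure D2:**
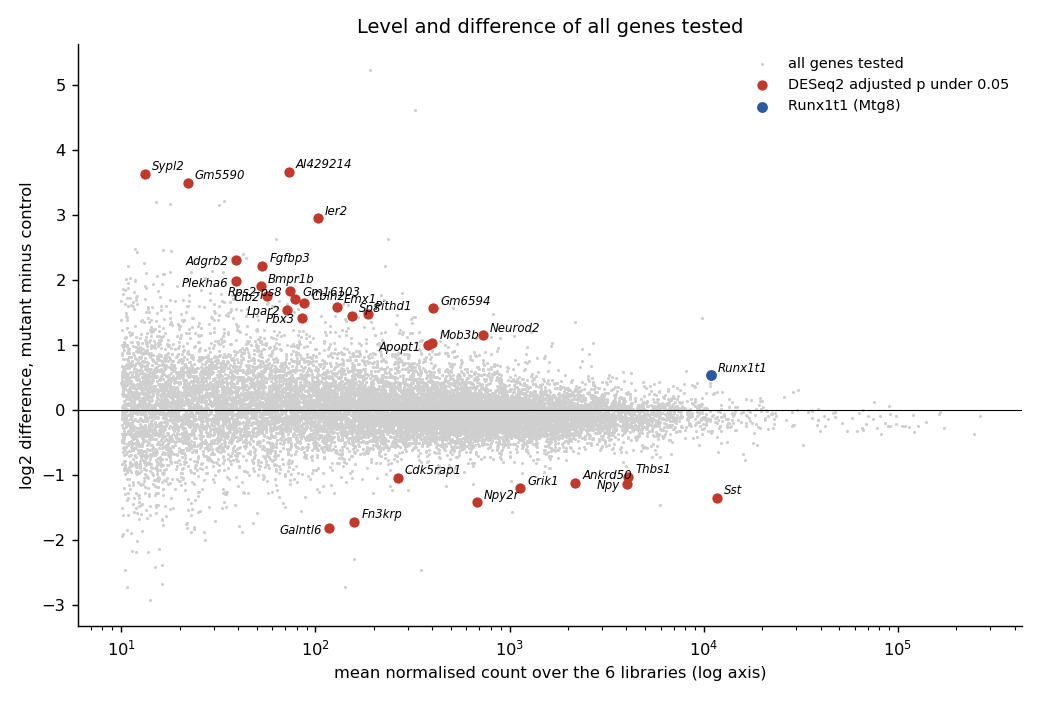
Each grey point is 1 of the 16132 genes tested, by its mean normalised count over 6 libraries (log axis) and its log2 difference, mutant minus control. Red points are the 30 genes called by DESeq2, 9 below 0 and 21 above, and the blue point is Runx1t1 at 0.54.

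Sst and Npy, which encode the inhibitory peptides somatostatin and neuropeptide Y of MGE interneurons, were among the 9 genes that DESeq2 called lower. Sst (chr16:23889573-23890958, minus strand) was at 17164, 14421 and 18501 in controls 1, 2 and 4 and at 5683, 8048 and 6115 in mutants 2, 3 and 4. Every mutant value was thus below the lowest control, and the mutant mean was 39.6% of the control mean. Sst fell by 1.34 ± 0.22 (SE) on the log2 scale in DESeq2 (adjusted p = 1.12e-05); limma gave a log2 difference of -1.34 ± 0.19 with an adjusted p of 0.0713 (exact permutation p = 0.1). In these bulk samples, fewer cells with Sst and less Sst per cell cannot be told apart. Npy (chr6:49822710-49829507, plus strand) was at 5151, 5037 and 6247 in the controls and at 2219, 3577 and 1952 in the mutants. It fell by 1.09 ± 0.26 (SE) in DESeq2 (adjusted p = 0.0300), to 47.1% of the control mean, and the groups did not overlap; in limma the log2 difference was -1.13 with an adjusted p of 0.580 (exact permutation p = 0.1). Within libraries of 1 name style the log2 difference was -1.47 and -1.40 for Sst and -1.20 and -1.24 for Npy, in dated and undated names respectively, so both were lower in either style.

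The sequences just upstream of the RefSeq starts of Sst and Npy are shown because both genes were lower together. Each is the 250 bases before the RefSeq start in GRCm38.p6, written 5′ to 3′ on the gene's strand, at chr16:23890845-23891094 (minus strand) and chr6:49822460-49822709 (plus strand), with capitals for the cyclic AMP response element TGACGTCA, which reads the same on both strands.
Sst: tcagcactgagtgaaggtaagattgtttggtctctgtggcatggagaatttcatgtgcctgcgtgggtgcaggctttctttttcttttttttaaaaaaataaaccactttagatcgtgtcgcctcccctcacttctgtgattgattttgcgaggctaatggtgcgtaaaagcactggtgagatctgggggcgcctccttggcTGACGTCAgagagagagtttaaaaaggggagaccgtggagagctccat
Npy: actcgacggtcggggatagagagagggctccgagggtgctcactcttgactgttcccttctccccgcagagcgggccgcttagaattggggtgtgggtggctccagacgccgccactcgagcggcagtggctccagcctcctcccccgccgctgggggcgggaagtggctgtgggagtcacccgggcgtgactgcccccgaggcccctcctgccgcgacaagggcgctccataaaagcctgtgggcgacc
The element lay 48 bases before the RefSeq start of Sst and was not matched in the Npy window. The Sst gene as counted reaches to base 23890958, so part of the Sst window, with the element, lies within it. It is held by 1.55% of 32851 promoter windows of this length and by 2.98% of the 9851 windows of tested genes. The homeodomain core TAATTA, also the same on both strands and held by 4.84% and 2.15%, was matched in neither.

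**Figure D3:**
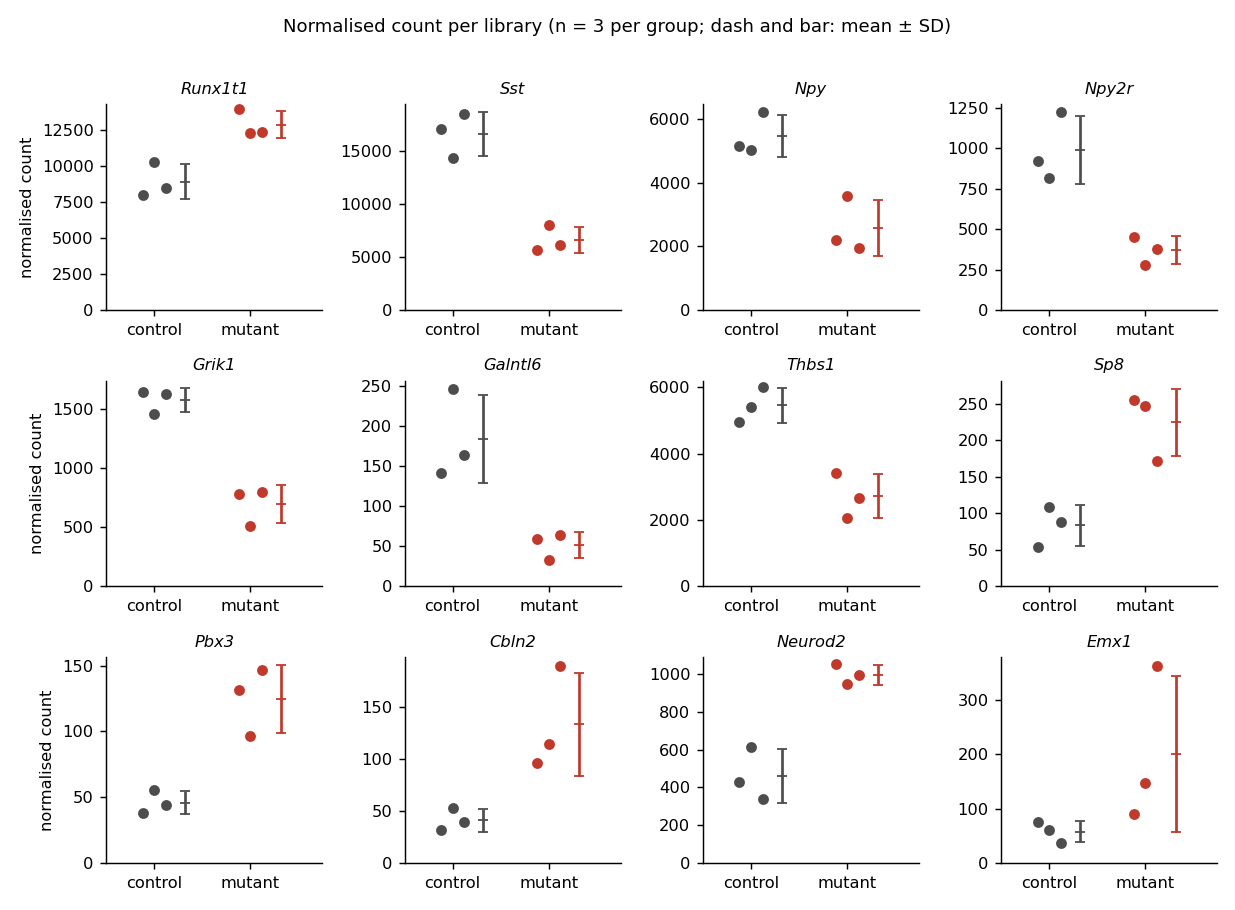
Points give the normalised count of 12 named genes in each of 3 control and 3 mutant libraries, with the mean and SD beside them on axes that start at 0. Runx1t1 and the 5 genes from Sp8 to Emx1 are higher in every mutant, and the 6 genes from Sst to Thbs1 are lower in every mutant.

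The other peptide genes did not share this difference. The list of 26 neuropeptides had 10 members above the filter; Sst and Npy were the 2 lower (20%, against 2.44% of all genes) at an unadjusted p under 0.05, and 0 were higher. Cort, a paralogue of Sst, was low but higher in every mutant (20.4, 21.1 and 13.8) than in any control (10.7 to 13.4; limma adjusted p = 0.895). Pnoc, which encodes the nociceptin precursor, stayed between 158 and 222 in all 6 libraries, and Tac1 was at 74.9 to 133 in the controls and 123 to 173 in the mutants. Peptide receptors were mixed. Npy2r, an inhibitory receptor for neuropeptide Y, fell by 1.42 ± 0.26 (SE) in DESeq2 (adjusted p = 0.000304), from 919, 819 and 1224 to 451, 280 and 380, with log2 differences of -0.94 within dated and -1.90 within undated names. The nociceptin receptor Oprl1 was lower (1254 to 1507 against 626 to 1220) and so was the somatostatin receptor Sstr1 (64.6 to 76.8 against 34.0 to 51.2), while Sstr2 was higher (247 to 615 against 650 to 1093). None of these 3 was called by DESeq2; their unadjusted limma p was 0.0387, 0.0537 and 0.0183.

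The other 6 genes that DESeq2 called lower have varied functions. Grik1, a kainate receptor subunit, was at 1638, 1455 and 1627 in the controls and 782, 513 and 795 in the mutants (DESeq2 log2 fold change -1.18 ± 0.24, adjusted p = 0.00231). Thbs1, the secreted glycoprotein thrombospondin 1, was at 4958, 5391 and 5988 against 3413, 2072 and 2676 (-1.003 ± 0.23, adjusted p = 0.0292). Galntl6, a member of the GalNAc transferase family, was at 141, 245 and 163 against 58.9, 33.1 and 63.4 (-1.82 ± 0.36, adjusted p = 0.00203). These 3 did not overlap between groups; the exons of Galntl6 overlap those of BC030500 on the opposite strand by 448 bases, and the strand setting of the counting was not given in the sources used here. Ankrd50, an ankyrin repeat protein, was at 2125 to 3675 against 956 to 1685, and Cdk5rap1, an enzyme that modifies transfer RNA, at 306 to 426 against 164 to 187; their DESeq2 adjusted p was 0.0413 and 0.0394. Within dated and undated names the log2 difference was -0.60 and -1.35 for Thbs1 and -0.61 and -1.63 for Ankrd50, so both were further from the controls in the undated libraries. Fn3krp was low in every mutant (45.9 to 91.9) but also in control 4 (61.6, against 385 and 316 in controls 1 and 2), so that its log2 difference was -2.81 within dated names and 0.08 within undated names. Lrrk1 and Fam135b were among the 10 genes with the smallest limma p of those lower in the mutants without overlap. Lrrk1 was at 35.8 to 49.9 against 9.17 to 12.5, and Fam135b at 1288 to 1469 against 415 to 807.

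Transcription factor genes were among the 21 that DESeq2 called higher. Sp8, a zinc finger factor of interneurons from the lateral and caudal ganglionic eminences, was at 53.7, 109 and 88.0 in the controls and 255, 247 and 172 in the mutants (log2 fold change 1.42 ± 0.33, adjusted p = 0.0292). Pbx3, a TALE homeobox factor, was at 38.0, 55.5 and 44.0 against 131, 96.5 and 147 (1.45 ± 0.36, adjusted p = 0.0453). Neurod2, a basic helix-loop-helix factor of excitatory neurons, was at 426, 614 and 338 against 1051, 945 and 993 (1.12 ± 0.26, adjusted p = 0.0265). In all 3 every mutant exceeded every control. Emx1, the homeobox factor of the dorsal telencephalon, also rose in DESeq2 (adjusted p = 0.0493), but its level in mutant 4 (362) stood far above mutants 2 and 3 (89.5 and 148) and the controls (37.2 to 74.9). Its log2 difference was 0.40 within dated and 2.61 within undated names.

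Receptor and secreted protein genes were also called higher. Bmpr1b, a type I receptor for bone morphogenetic proteins, was at 14.5, 37.3 and 16.6 in the controls and 90.6, 68.0 and 86.4 in the mutants (DESeq2 log2 fold change 1.84 ± 0.46, adjusted p = 0.0477). Cbln2, a secreted synapse organiser, was at 31.3, 53.3 and 39.1 against 96.3, 115 and 190 (1.70 ± 0.39, adjusted p = 0.0265). Lpar2, a receptor for lysophosphatidic acid, was at 36.9, 42.7 and 27.4 against 133, 119 and 71.9 (1.596 ± 0.40, adjusted p = 0.0476). None of these low-count genes overlapped between groups. Mob3b, of the MOB kinase activator family, was at 242 to 277 in the controls and 510 to 581 in the mutants (adjusted p = 0.0143). Plekha6 was at 9.60 to 21.2 and 52.1 to 72.6, the calcium-binding protein gene Cib2 at 15.6 to 29.9 and 48.7 to 117, Fgfbp3, which encodes a binding protein for fibroblast growth factors, at 7.47 to 22.4 and 38.5 to 166, and Apopt1 at 225 to 281 and 421 to 631. The exons of Cib2 share 454 bases with those of Sh2d7 on the opposite strand.

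Several of the genes called higher had few counts in the controls. AI429214 was at 8.94, 12.8 and 5.87 in controls 1, 2 and 4 and at 137, 203 and 68.8 in mutants 2, 3 and 4 (log2 fold change 3.89 ± 0.52, DESeq2 adjusted p = 8.12e-10), and it had the lowest adjusted p in limma (0.0673). The pseudogene Gm5590 was at 1.12 to 5.87 against 26.0 to 49.8 and Sypl2, a synaptophysin-like gene, at 0.00 to 3.35 against 22.2 to 27.2. The immediate early gene Ier2 was at 12.8 to 19.6 in the controls and at 37.4, 188 and 342 in mutants 2, 3 and 4 (DESeq2 adjusted p = 5.20e-06). Mutant 2 was thus nearest to the controls for Ier2, and its log2 difference was 1.25 within dated and 3.63 within undated names. The processed pseudogenes Gm6594 (142 to 231 against 263 to 1093), Gm16103 (24.5 to 41.1 against 56.6 to 210) and Rps2-ps8 (19.6 to 24.6 against 14.7 to 209) can share reads with their parent genes, so their counts are uncertain. Rps2-ps8, Pithd1 (65.5 to 88.3 against 75.9 to 497) and Adgrb2, an adhesion G-protein-coupled receptor (4.89 to 10.7 against 5.66 to 152), overlapped between groups: mutant 2 was within or below the control range, and mutants 3 and 4 stood above it.

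Most genes of the MGE signature had a lower mean in the mutants. This signature comes from microarrays of other embryos, on which MGE-derived cortical interneurons were compared with those of the caudal ganglionic eminence (CGE). The study's methods give as an example a comparison with CGE cells of a later embryonic age. The MGE and CGE lists may thus differ by age as well as by origin. The list holds 684 symbols, and 539 of them passed the filter. Of these, 378 (70.1%) had a lower mean and 161 a higher one, beside 51.5% lower among all 16132 genes. At an unadjusted p under 0.05, 71 (13.2%, against 2.44% of all genes) were lower and 18 (3.34%, against 3.06%) higher. Groups did not overlap for 99 lower (18.4%, against 5.52%) and 19 higher members (3.53%, against 4.68%). The median log2 difference was -0.19 (quartiles -0.41 and 0.05), beside -0.01 over all genes. The median over members was -0.13, -0.25 and -0.15 in mutants 2, 3 and 4, relative to the control mean, and -0.01, 0.04 and -0.0037 in controls 1, 2 and 4. It was -0.14 within dated and -0.20 within undated library names, so all 3 mutant libraries contributed. Without single libraries, 43 (without control 2) to 108 (without mutant 2) were lower at an unadjusted p under 0.05. Over all genes these 2 fits had 181 and 1115 lower, against 393 with every library. In the same libraries, pyramidal lineage and radial glia markers had higher medians in the mutants (0.51 and 0.53), and their part in this result was not tested. The list holds 7 of the 9 genes that DESeq2 called lower (Sst, Npy, Npy2r, Grik1, Thbs1, Galntl6 and Ankrd50) and 1 that it called higher, Lpar2. Of all 19724 genes that DESeq2 tested, it called 0.0456% lower and 0.106% higher. Hmgb1 and Prdx2 overlapped between groups, so the signature was not lower throughout.

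Somewhat more genes of the CGE signature had a higher than a lower mean. Of 771 symbols, 630 passed the filter, and 359 (57.0%, against 48.5% of all genes) had a higher mean. At an unadjusted p under 0.05, 48 (7.62%, against 3.06%) were higher and 12 (1.90%, against 2.44%) lower, and 52 (8.25%, against 4.68%) did not overlap in the higher direction. The median log2 difference was only 0.07; by library it was 0.15 in mutant 2, -0.06 in mutant 3 and 0.09 in mutant 4, and without mutant 2 it was -0.0037 with 309 of 629 members higher. The members Sp8, Pbx3 and Cbln2 were called higher by DESeq2, beside 0.106% of all genes it tested. Dlx1, also a member, was lower in every mutant. Of 15 members of a separate list of CGE identity genes, 10 had a higher mean, 4 were higher (26.7%, against 3.06%) and 2 lower (13.3%, against 2.44%) at an unadjusted p under 0.05, and the median was 0.33, or -0.07 without mutant 2. Calb2 was higher in every mutant (165 to 200 against 208 to 493), Synpr overlapped (99.2 to 173 against 168 to 359), and Igf1 was lower (148 to 186 against 61.9 to 83.8). The orphan receptors Nr2f1 and Nr2f2, the cannabinoid receptor gene Cnr1 and the serotonin receptor gene Htr3a overlapped.

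**Figure D4:**
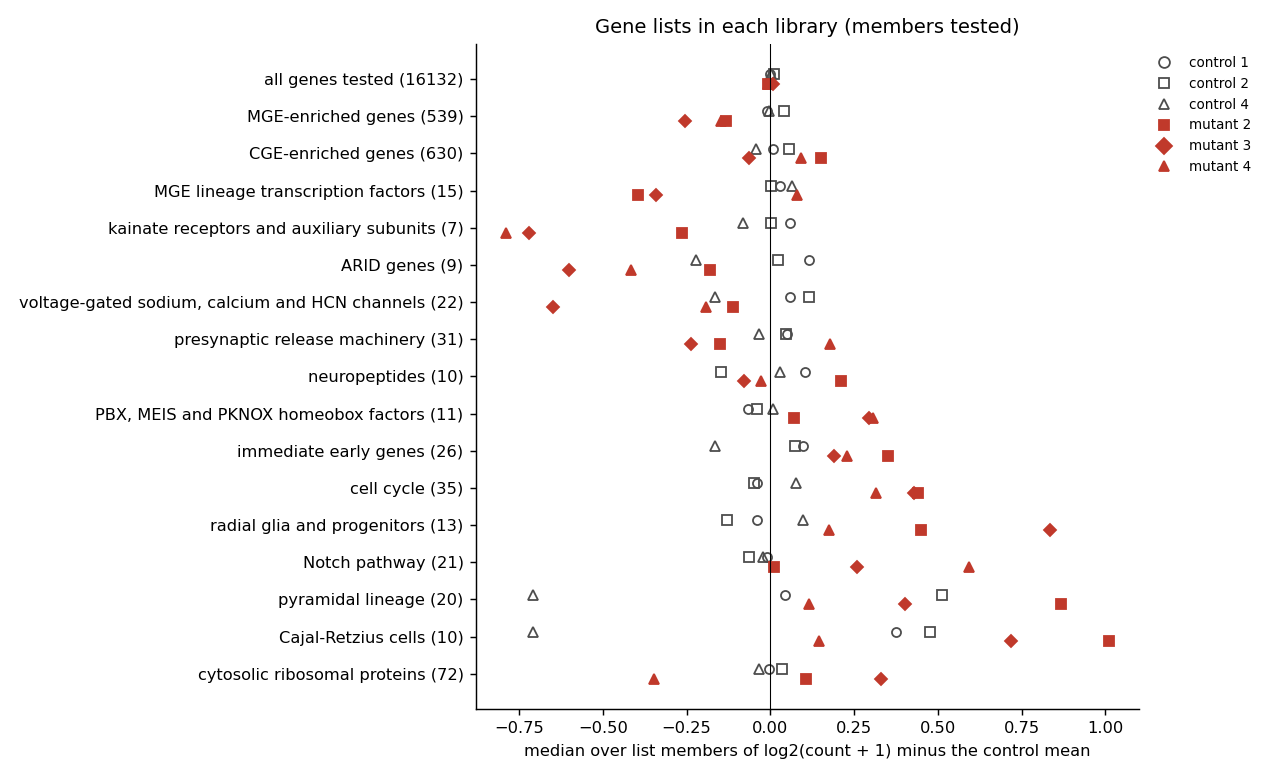
For each gene list (number of members tested in brackets), symbols give the median over members of log2(normalised count + 1) minus the control mean, in each control (open) and mutant (filled) library. Cell cycle genes are at 0.32 to 0.44 in the mutants and MGE-enriched genes at -0.25 to -0.13, with all 3 mutants outside the controls, whereas CGE-enriched genes and transcription factors of the MGE lineage are not on 1 side.

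Of 15 transcription factor genes of the MGE lineage measured, Sox6, Satb1 and Dlx1 (20%, against 2.44% of all genes) were lower at an unadjusted limma p under 0.05 and Etv1 (6.67%, against 3.06%) was higher. Groups did not overlap for 4 in the lower direction (26.7%, against 5.52%). Sox6 was at 6264, 6591 and 7227 in the controls and 4570, 3227 and 4584 in the mutants (log2 difference -0.71). Satb1 was at 3812, 3547 and 3238 against 2110, 2235 and 2611 (-0.61). Dlx1, which is also on the CGE signature list, was at 19720, 18158 and 20217 against 11836, 8648 and 17407 (-0.67), its highest mutant being just under the lowest control. Lhx6, whose values are given above, was 0.24 lower on the log2 scale with groups that did not overlap (limma adjusted p = 0.870). Maf, Zeb2 and Nkx2-1 overlapped. Dlx2 behaved unlike the rest: it was at 738 to 842 in the controls, 432 in mutant 2, 1485 in mutant 3 and 5616 in mutant 4. Etv1, an ETS factor, was higher in every mutant (584 to 763 against 849 to 1219). The median over the list was 0.08 in mutant 4 but -0.40 and -0.34 in mutants 2 and 3.

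Transcripts that make the cells GABAergic mostly overlapped between groups. Gad1 was at 2853 to 3423 in the controls and 2566 to 3619 in the mutants. Gad2, the second glutamate decarboxylase, was lower in mutants 2 and 3 (3064 and 2035) and within the control range of 4468 to 4858 in mutant 4 (4513). The vesicular transporter gene Slc32a1 overlapped between groups. Of 9 genes of GABA synthesis, transport and chloride handling measured, 1 was lower and 1 higher at an unadjusted p under 0.05 (11.1% each, against 2.44% and 3.06% of all genes). The median log2 difference was 0.01, with -0.27 within dated and 0.32 within undated names and -0.23 without mutant 4. Among markers of somatostatin interneuron subtypes, the neurexophilin gene Nxph2 was lower in every mutant (5424, 5673 and 6273 against 4025, 3850 and 3873). Nxph1 was lower in mutants 2 and 3 and within the control range in mutant 4, and Calb1 and Reln overlapped. Calb2 and Etv1, also on this list, were higher in every mutant. Of the 16 markers measured, 4, with Sst and Npy among them, were lower (25%, against 2.44% of all genes) at an unadjusted p under 0.05. At this limit 3 were higher (18.8%, against 3.06%). Groups did not overlap for 3 lower (18.8%, against 5.52%) and 4 higher members (25%, against 4.68%).

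The other kainate receptor genes mostly had lower means, as Grik1 did. Of 7 kainate receptor and auxiliary subunit genes, 6 had a lower mean (85.7%, against 51.5% of all genes), 3 were lower at an unadjusted p under 0.05 (42.9%, against 2.44%; 5 without mutant 2) and 4 did not overlap (57.1%, against 5.52%); the median log2 difference was -0.55, or -0.30 within dated and -0.51 within undated names. Neto1, an auxiliary subunit, was at 1753, 2279 and 1255 in the controls and 892, 1038 and 991 in the mutants. Grik3 was at 1333 to 1671 against 604 to 1210 and Grik2 at 905 to 1105 against 411 to 898. Grik4 was the 1 member with a higher mean, at 5.33 to 15.7 against 10.1 to 25.2, and its log2 difference was -0.039 without control 2. Of 16 AMPA, NMDA and delta receptor genes, 3 were lower (18.8%, against 2.44%) and 1 higher (6.25%, against 3.06%) at an unadjusted p under 0.05, and without mutant 3 the means were lower in 8 and higher in 8. Gria1 was lower (18945, 19133 and 23154 against 13801, 8937 and 13758; log2 difference -0.77, limma adjusted p = 0.769) and Gria2 and Gria4 overlapped.

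Some genes of excitability and transmitter release were lower, and mutant 3 had the lowest list median of the 6 libraries. Of 22 voltage-gated sodium, calcium and HCN channel genes, 5 were lower and 0 higher at an unadjusted p under 0.05, against 2.44% and 3.06% of all genes, with 2 lower without control 1 or 2 and 3 without mutant 3. They included Cacnb4 (1762 to 1824 against 971 to 1571), the T-type channel genes Cacna1i (79.2 to 99.5 against 31.7 to 65.0) and Cacna1g (283 to 349 against 131 to 274) and the sodium channel gene Scn1a (658 to 958 against 436 to 598). The list's median was -0.11, -0.65 and -0.19 in mutants 2, 3 and 4, and -0.17 in control 4, so only mutant 3 stood well apart. Of 31 presynaptic genes, 6 were lower (19.4%, against 2.44%) and 2 higher (6.45%, against 3.06%), and 3 (9.68%, against 4.68%) did not overlap in the higher direction. The list's median was -0.15, -0.24 and 0.18 in mutants 2, 3 and 4, so mutant 4 lay above every control. The active zone genes Rims2 (928 to 1100 against 520 to 712) and Pclo (561 to 904 against 314 to 523), the vesicle GTPase genes Rab3b (547 to 654 against 326 to 391) and Rab3c (5322 to 6073 against 3286 to 4877), and Syt1, the calcium sensor of release (5752 to 6252 against 2877 to 5408), did not overlap. Snap25, Vamp2 and Rab3a of the same machinery did.

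Surface and chromatin genes differed from list to list. The neuregulin receptor gene Erbb4 was at 3974 to 5271 in the controls and 2420 to 3442 in the mutants, and its ligand gene Nrg1 was at higher values with overlap (161 to 247 against 241 to 483). Sema3c was higher in every mutant (57.0 to 154 against 174 to 420). Of 36 genes of interneuron migration signals, 2 were lower (5.56%, against 2.44% of all genes) and 2 higher (5.56%, against 3.06%) at an unadjusted p under 0.05. Cdh11 (685 to 839 against 443 to 549) and Pcdh10 (155 to 251 against 93.3 to 127) were the 2 lower of 25 cadherins (8.0%, against 2.44% of all genes), with 0 higher. Of 19 cerebellins, neurexins and partners of synaptic adhesion, 4 (21.1%, against 2.44%) were lower and 1 (5.26%, against 3.06%) higher. Nrxn3 (6347 to 7845 against 2329 to 5998) and Nlgn2 (980 to 1061 against 554 to 815) were among the lower. The median was 0.06, -0.41 and -0.24 in mutants 2, 3 and 4 for this list and 0.25, -0.50 and -0.10 for the cadherins, so mutant 2 was not on the lower side in either. Of 9 genes with the ARID DNA-binding domain, 8 had a lower mean (88.9%, against 51.5% of all genes; median -0.35) and 2 (22.2%, against 2.44%) were lower at an unadjusted p under 0.05, led by Arid5b at 838, 560 and 553 against 404, 212 and 270 (log2 difference -1.16, limma adjusted p = 0.741), and Arid1a was at 3244 to 3844 against 2426 to 3404. The list's median was -0.18, -0.60 and -0.42 in mutants 2, 3 and 4 and -0.22 in control 4, so mutant 2 lay within the control range.

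The median of the cell cycle list was higher in each of the 3 mutant libraries than in any control. Of 35 genes, all passed the filter, 33 had a higher mean and 2 (Pcna and Mcm7) a lower one. At an unadjusted limma p under 0.05, 13 (37.1%, against 3.06% of all genes) were higher and 0 lower, and 16 (45.7%, against 4.68%) did not overlap in the higher direction. The 13 became 7 without control 1, 5 without control 2 and 11 to 12 without any other single library. No member was called by DESeq2 at an adjusted p under 0.05. The median log2 difference was 0.39, and by library 0.44, 0.43 and 0.32 in mutants 2, 3 and 4 against -0.04, -0.05 and 0.08 in controls 1, 2 and 4. It was 0.44 within dated and 0.28 within undated names, so the groups differed in both. In the same comparison, markers of radial glia and progenitors had a higher median in the mutants (0.53). The median of the 5 oligodendrocyte precursor markers was 2.02, but 0.30 within undated names, and all 5 overlapped between groups. By library it was 2.39 in control 4, above mutants 2 and 3 (0.66 and 2.04). The part of these 2 marker lists in the cell cycle result was not tested.

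Genes of mitosis had some of the lowest p-values on the list. Cdc20, an activator of the anaphase-promoting complex, was at 362, 277 and 256 in the controls and 484, 528 and 612 in the mutants (log2 difference 0.87, limma adjusted p = 0.769). Ube2c, the ubiquitin-conjugating enzyme of the same complex, was at 342, 334 and 343 against 443, 739 and 682.6 (0.84, limma adjusted p = 0.859). Ccnb2, a mitotic cyclin, was at 269, 285 and 233 against 360, 494 and 409 (0.67, limma adjusted p = 0.859). Cdk1 (320 to 447 against 500 to 671), Birc5 (275 to 288 against 352 to 471) and Tpx2 (519 to 647 against 774 to 1015) did not overlap either. Of the genes that act at entry into S phase, Cdk2 was at 199 to 240 against 322 to 436, Ccne1 at 19.0 to 48.9 against 49.8 to 86.4 and the D-type cyclin gene Ccnd2 at 2912 to 4101 against 4148 to 6058. Cdk4 overlapped (8516 to 10440 against 9682 to 10499), and so did most of the Mcm helicase genes and the proliferation marker Mki67 (297 to 539 against 431 to 642).

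**Figure D5:**
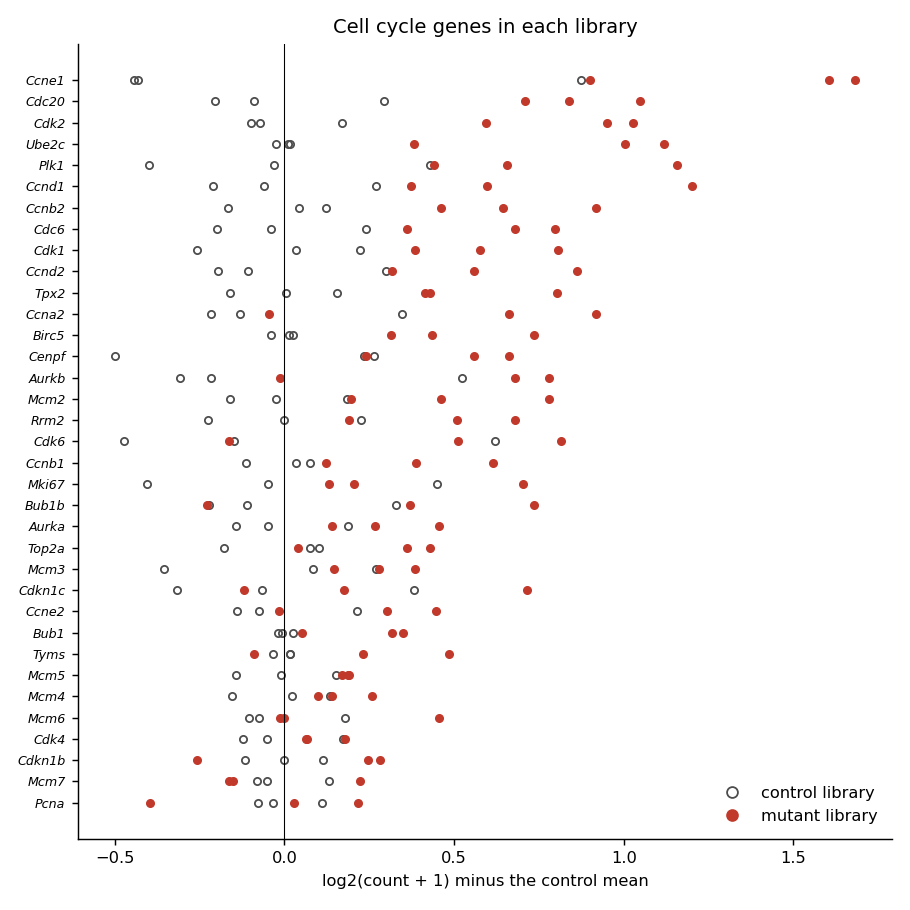
Each row is 1 of 35 cell cycle genes, ordered by its log2 difference, and points give log2(normalised count + 1) minus the control mean in the 3 control (open) and 3 mutant (filled) libraries. In 16 genes all mutant points lie above all control points.

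Upstream windows of Cdc20, Ccnb2 and Ube2c are shown because these genes were higher together. They are the 250 bases before the RefSeq start in GRCm38.p6 on the gene's strand, at chr4:118437344-118437593 (minus), chr9:70421555-70421804 (minus) and chr2:164769679-164769928 (plus). Capitals mark the letters CCAAT of the so-called CCAAT box, which the other strand shows as ATTGG where it holds the box. They also mark the letters TTTGAA, shown by the other strand as TTCAAA, which form the core of the cell cycle homology region of genes transcribed in late cell cycle.
Cdc20: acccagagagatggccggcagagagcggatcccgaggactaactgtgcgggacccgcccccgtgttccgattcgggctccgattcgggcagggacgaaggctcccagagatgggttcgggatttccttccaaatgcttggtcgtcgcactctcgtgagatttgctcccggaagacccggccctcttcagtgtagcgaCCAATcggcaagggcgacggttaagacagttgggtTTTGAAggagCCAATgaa
Ccnb2: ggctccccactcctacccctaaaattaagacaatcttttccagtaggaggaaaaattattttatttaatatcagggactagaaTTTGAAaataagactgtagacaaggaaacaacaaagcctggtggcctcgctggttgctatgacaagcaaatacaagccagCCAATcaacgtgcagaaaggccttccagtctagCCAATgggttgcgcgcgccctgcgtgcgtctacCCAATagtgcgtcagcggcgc
Ube2c: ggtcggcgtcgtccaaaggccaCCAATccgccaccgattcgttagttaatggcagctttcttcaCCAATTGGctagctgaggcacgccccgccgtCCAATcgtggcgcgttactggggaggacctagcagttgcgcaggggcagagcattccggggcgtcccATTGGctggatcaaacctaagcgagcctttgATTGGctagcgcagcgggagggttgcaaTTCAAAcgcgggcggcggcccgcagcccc
The Cdc20 window holds CCAAT at 53 and 8 bases before the start with TTTGAA between them. Of the 35 cell cycle genes, 27 had a window, and 21 of these (77.8%) held CCAAT on either strand, beside 36.9% of the 9851 tested genes with a window and 33.8% of all windows. TTTGAA was in 7 of the 27 (25.9%), beside 10.3% and 16.0%. Such letter matches are a description of the sequences and not of sites.

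Most markers of radial glia and progenitors also had higher means. Of 13 measured, 12 had a higher mean (92.3%, against 48.5% of all genes), 5 were higher at an unadjusted p under 0.05 (38.5%, against 3.06%; 2 without control 2 and 3 without mutant 3) and 0 lower, and the median log2 difference was 0.53. By library it was 0.45, 0.84 and 0.18 in mutants 2, 3 and 4, with control 4 at 0.10, so mutant 4 lay closest to the controls. Vim, an intermediate filament gene, was at 1019, 803 and 1188 against 1365, 2304 and 1673 and Nes, another, at 270, 234 and 249 against 322, 452 and 436. Ttyh1, a membrane protein gene of neural stem cells, was at 137, 192 and 133 against 283, 336 and 275. None of these 3 overlapped. The fatty acid binding protein gene Fabp7 and Hes1, an effector of Notch signalling, were above the control range in 2 of 3 mutants: Fabp7 was at 2719 to 3419 in the controls and 4096, 6600 and 3352 in mutants 2, 3 and 4, and Hes1 at 48.0 to 54.8 and 51.0, 125 and 174.

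Receptors and targets of Notch and of bone morphogenetic proteins (BMPs) were partly higher. Notch signalling holds progenitors back from becoming neurons, and BMPs induce the Id genes. Of 21 Notch pathway genes, 4 were higher (19.0%, against 3.06% of all genes) and 0 lower at an unadjusted p under 0.05: the receptors Notch2 (72.7 to 96.8 against 139 to 177) and Notch3 (20.1 to 35.2 against 37.4 to 79.0), and the targets Hes1 and Hey1 (168 to 194 against 215 to 314). The list's median was 0.01 in mutant 2, 0.26 in mutant 3 and 0.59 in mutant 4. Of 30 genes of BMP and TGF-beta signalling, 6 were higher (20%, against 3.06%) and 2 lower (6.67%, against 2.44%). Beside Bmpr1b, the ligand gene Bmp7 (3.35 to 17.6 against 21.5 to 40.5), the receptor gene Acvr1c (7.83 to 26.7 against 32.9 to 63.4) and the target Id3 (770 to 1188 against 1219 to 1742) were higher without overlap, Id2 was higher with overlap, and the ligand gene Tgfb3 (898 to 1324 against 544 to 824) and the receptor gene Acvr2b (244 to 426 against 181 to 238) were lower. The direct effector genes Smad2 and Smad5 overlapped.

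Transcripts of cortical excitatory neurons were present in every library and partly higher in the mutants. Neurod6, a marker of this lineage, was at 7668, 10347 and 4146 in controls 1, 2 and 4 and at 16641, 8095 and 5430 in mutants 2, 3 and 4, and the groups overlapped. Of 20 pyramidal lineage genes, 16 had a higher mean (80.0%, against 48.5% of all genes). At an unadjusted p under 0.05, 5 were higher (25%, against 3.06%, or 8 without control 2 and 3 without control 4 or mutant 4) and 1 lower (5.0%, against 2.44%). DESeq2 called 2 higher, Neurod2 and Emx1, beside 0.106% of all genes it tested. Emx2 was at 73.8 to 78.9 against 116 to 184, Fezf2 at 50.9 to 170 against 159 to 255 and Tbr1 at 107 to 354 against 305 to 363. The summed level of all 20 did not follow the groups: it was 27144, 33202 and 22961 in the controls and 38319, 23049 and 24687 in the mutants. The median log2 difference was 0.51, or 0.10 without control 4, which was the library with the least of these transcripts, and 0.51 within dated and 1.19 within undated names. Bcl11b and Cux2, which interneurons also express, were lower in every mutant (5857 to 6514 against 2622 to 5389, and 9408 to 10871 against 7262 to 9037). Both count in the sum over all 20 and hold a large part of it, so that sum does not measure excitatory neurons alone. Whether the sort held more excitatory neurons in the mutants was not tested. Markers of Cajal-Retzius cells had medians of 0.38, 0.48 and -0.71 in controls 1, 2 and 4 and 1.01, 0.72 and 0.15 in mutants 2, 3 and 4. That list shares Tbr1 with this one, and Reln and Calb2 with the markers of somatostatin interneuron subtypes.

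Immediate early genes, which are transcribed within minutes of a stimulus, mostly had higher means. Of 26 measured, 19 (73.1%, against 48.5% of all genes) had a higher mean, and 6 (23.1%, against 4.68%) did not overlap in the higher direction. The list's median was 0.35, 0.19 and 0.23 in mutants 2, 3 and 4 and 0.10, 0.07 and -0.17 in controls 1, 2 and 4, so each mutant lay above each control. At an unadjusted p under 0.05, 3 (11.5%, against 3.06%) were higher and 0 lower: Ier2, Gadd45g (266 to 788 against 1096 to 1297) and Ccn1 (50.1 to 122 against 133 to 355). Dusp1, Btg1 and Btg2 overlapped.

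Other lists of cell state had few members past the threshold. Of 18 genes of heat shock and the unfolded protein response 0 passed in either direction, and of 18 p53 targets and cell death genes 1 was lower (5.56%, against 2.44% of all genes) and 0 higher. The 72 cytosolic ribosomal protein genes had a median log2 difference of 0.03, with -0.35 in mutant 4 and 0.33 in mutant 3, so these 2 libraries differed from each other more than the groups did. All 13 mitochondrially encoded genes had a lower mean and 0 passed, their share of reads being 2.52% in mutant 4, 3.04% in mutant 2, 3.68% in mutant 3 and 3.02% to 3.39% in the controls.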

How the data were processed

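RNA was measured in YFP-sorted cortical cells of 6 mouse embryos, 1 per library. Per the study's methods and the submitters' processing notes, reads were trimmed with fastp 0.20.1, aligned with STAR 2.7b to GRCm38.p6 and counted per GENCODE M23 gene with featureCounts 1.6.4, and sex-linked genes were removed. The strand setting of the counting was not given in the sources used here. The values the authors deposited are a signal, the reads per gene divided by the size factor that DESeq2 gave each library (normalised counts). In each library 100% of them could be divided by what 1 read adds without remainder (tolerance 0.01), which gave back whole reads, and size factors refitted to these differed by at most 0.172%. Because the table was normalised by library and not by gene length, differences in count between genes are not read as differences in level. The deposited table also holds the authors' own comparison (fold changes, Wald statistics and p-values), which was not used, nor was the separately normalised Lhx6 table.

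From these values, limma 3.58.1 under R 4.3.3 (trended variance, no covariate) was fitted to log2(normalised count + 1) for the 16132 of 25714 genes with a mean of at least 10. Tests were two-sided with Benjamini-Hochberg adjustment over all genes tested and a threshold of 0.05. Log2 differences on this scale understate the change of low genes. DESeq2 1.42.0 (the study's test) and edgeR 4.0.16 (quasi-likelihood) were run on the recovered reads as alternatives, and all 3 fits were tested on simulated data. Each library, from 1 embryo, counted as 1 replicate, and no 2 of a group held the same counts (chi-square per gene 10.7 to 74.5). P-values measure only the spread between these embryos. Other alternatives were TMM factors, equal library totals, other pseudocounts (0.5 and 10), other filters (none and a mean of 50), no trend, an adjusted p under 0.1, a replicate block, the name style (dated or undated) as a covariate or within itself, and leaving out each library.

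Named were the MTG family, the genes that the study's text names for this comparison, the genes called by DESeq2, the 10 lower and 10 higher genes with the smallest limma p among those whose groups do not overlap, and, in gene lists, up to 5 members with the smallest p, up to 5 with the highest mean and all of lists of 12 or fewer. Members outside this rule were picked after their values were seen. The lists of MGE-enriched and CGE-enriched genes are the study's microarray lists, without probe sets that name several genes. The comparison, the members and all lists were chosen with earlier results of these data known, and lists were given no test. Promoter windows were taken from a RefSeq table of GRCm38.p6 with 32851 promoters, in which 27 of 35 cell cycle genes and 9851 of the tested genes were matched by symbol. Some members of the gene lists are not reported here by name.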

Additional observations from a re-analysis of the deposited data

How the results depend on the processing

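Of the counts of genes called lower and higher by limma at an adjusted p under 0.05 (0 and 0), TMM factors, equal library totals, pseudocounts of 0.5 and 10, no trend and the name style as a covariate gave 0 and 0 as well. DESeq2 called 9 lower and 21 higher, edgeR 0 and 1, a minimum mean of 50 gave 1 and 1, no filter 0 and 1, and an adjusted p under 0.1 1 and 1. Leaving out each library gave 0 to 4 lower and 0 to 83 higher. The upper values came without mutant 2, and 0 to 1 were called without any of the other 5. Equal library totals moved the median of all genes from -0.01 to 0.06 on the log2 scale. Sst (log2 difference -1.34, limma adjusted p = 0.0713) passed the threshold with DESeq2 (-1.34), a minimum mean of 50 (-1.34) and an adjusted p under 0.1 (-1.34). Without single libraries it was -1.49 to -1.24, past the threshold without mutant 2 (adjusted p = 0.0259). Npy (-1.13) passed with DESeq2 (-1.09) and was -1.39 to -0.95 without single libraries. Runx1t1 was 0.46 to 0.64 without single libraries and was called under no alternative run. Without single libraries Cbfa2t2 was -0.050 (without mutant 2) to 0.37 and Cbfa2t3 -0.032 (without mutant 4) to 0.33. The cause of these changes was not tested.

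List medians moved in part. That of the cell cycle genes (0.39) was 0.46 with equal library totals, 0.28 within undated names and 0.35 to 0.45 without single libraries. For MGE-enriched genes (-0.19) it was -0.12 with equal library totals and -0.22 to -0.14 without single libraries. Kainate receptor genes (-0.55) were at -0.30 within dated names and -0.83 to -0.47 without single libraries, the first without control 4. Pyramidal lineage genes (0.51) were at 1.19 within undated names and 0.10 to 0.80 without single libraries, radial glia genes (0.53) at 0.38 to 0.60 and CGE-enriched genes (0.07) at -0.0037 to 0.15. The MTG family, the genes called by DESeq2 and the other single genes named for this comparison kept their direction under the alternatives run, except the 2 MTG paralogues above, Fn3krp within undated names (0.08) and Pithd1 (-0.21), Adgrb2 (-0.40) and Rps2-ps8 (-0.57) within dated names. Of 371 further list members, 179 had the other direction under at least 1 alternative, 128 of them outside the name-style values. Of the 105 among them with an unadjusted p under 0.05, 5 did so, each within a name style alone. These 105, like the genes called by DESeq2, were chosen by their p in the same 6 libraries. That most kept their direction is therefore no separate support. Microglial genes (median 0.31) were at -1.65 with DESeq2.

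Replicate numbers 2 and 4 occur in both groups, and no source used here says that they pair embryos. With the replicate number as a block limma called 12 genes lower and 88 higher, with Sst at -1.47 (adjusted p = 0.000162) and Npy at -1.43 (adjusted p = 5.39e-05). Control 1 and mutant 3 share their number with no library of the other group, so they add nothing to the blocked difference. It comes from controls 2 and 4 and mutants 2 and 4 alone. With so few libraries the spread behind these calls is poorly known, and no conclusion is drawn from their number. Across genes, libraries of 1 number deviated from their groups with a correlation of 0.138 (number 2) and 0.159 (number 4). The other pairs across groups ran from -0.180 to 0.0778. Both pairs of 1 number also share a name style, as do control 1 with mutant 2 (0.0778) and control 4 with mutant 3 (0.0397). What lies behind these values was not tested. Differences within 1 name style rest on 3 libraries and gave no count of calls. Genes with few reads, such as Gm5590 and Sypl2 in the controls, are limited by depth, at 0.764 to 1.13 normalised counts per read.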
